A study of Mus musculus with 6 samples.

Results

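Epidermal differentiation in the mouse is steered by a small set of transcription factors, and 10 of them were followed here across a 12 h exposure of keratinocytes to interleukin-33 (IL-33), an alarm cytokine related to IL-1. The 10 are the Krüppel-like factors Klf4 and Klf5, the Grainyhead factors Grhl1, Grhl2 and Grhl3, the zinc finger factors Ovol1, Zfp750 and Prdm1, and the AP-2 factors Tfap2a and Tfap2c. They were chosen by name from the 52550 genes in the deposited table, and all 10 were found. The cells were primary keratinocytes from the skin of wild-type C57BL/6 mice at postnatal days 0 to 2, grown for 2 days. One group of 3 libraries came from cells given recombinant IL-33 and the other group of 3 from untreated cells. No label ties a library to its own culture, well or animal, and the p-values below may therefore rest on technical spread alone. The IL-33 dose is not stated in the sources used here.

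Keratinocytes divide in the basal layer of the epidermis, leave the cell cycle as they move up, and end as the dead, cross-linked cells of the skin barrier. The master factor p63 holds the epidermal fate, and the factors described here act with it or after it: AP-2 and Grainyhead factors open and bind the control regions of epidermal genes, while Klf4, Zfp750, Ovol1 and Prdm1 push cells toward exit from division and terminal differentiation. IL-33 acts through the receptor ST2 and the adaptor MyD88, a route known to switch on NF-kB.

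The libraries held 34188173 to 44255925 deposited estimated counts with IL-33 and 41456441 to 45266298 untreated, and by an estimate from the low values about 4 deposited counts stand for 1 sequenced fragment. Markers of basal keratinocytes, led by Krt5 and Krt14, summed to 35346 to 37969 CPM (counts scaled to library size) with IL-33 and 35203 to 36290 CPM untreated. Of these 7 markers, 2 had log2 fold changes (IL-33 minus untreated) above 0 and 5 below. Krt5 was higher and Itgb4 lower in every IL-33 library than in any untreated library. Groups so separated, in either direction, were found in 13.7% of all genes. Itgb4 had 1007, 1004 and 849 CPM with IL-33 against 1112, 1131 and 1117 CPM untreated (edgeR adjusted p = 0.575). Krt15 averaged only 0.999 CPM with IL-33 and 1.06 CPM untreated. The 7 suprabasal markers summed to 109.7 to 124 CPM with IL-33 and 102 to 145 CPM untreated. Of these 7, 1 had a log2 fold change above 0 and 6 below. Most of this sum was Sbsn, which averaged 83.0 CPM with IL-33 and 83.7 CPM untreated. Krt1, Krt10 and Lor averaged only 2.77, 2.28 and 1.13 CPM with IL-33 and 1.45, 2.39 and 1.45 CPM untreated. Melanocyte markers were plentiful in every library, at 1119 to 1219 CPM with IL-33 and 1124 to 1173 CPM untreated over 6 genes. The 6 fibroblast markers summed to 26.5 to 31.0 CPM with IL-33 and 29.7 to 38.1 CPM untreated. Of the 5 that could be tested, 3 had log2 fold changes above 0 and 2 below. Col1a1 was lower in every IL-33 library, at 4.14, 2.41 and 3.60 CPM against 12.6, 4.74 and 5.72 CPM untreated (edgeR adjusted p = 0.74). Among immune markers Ptprc, Cd52, Cd74 and Cd207 stayed under 12 deposited counts, a floor of about 3 fragments, in every library. The fifth immune marker, Lyz2, had 16, 16 and 130 deposited counts with IL-33 and 34, 8 and 0 untreated, and the 5 together summed to 0.364 to 3.10 CPM with IL-33 and 0.0883 to 0.760 CPM untreated. The 4 endothelial markers summed to 16.3 to 17.1 CPM with IL-33 and 13.5 to 19.8 CPM untreated. Most of this sum was Kdr, with 12.97, 12.7 and 13.7 CPM with IL-33 and 11.6, 15.1 and 15.8 CPM untreated. Cdh5 stayed under 12 deposited counts in every library. In such bulk samples, fewer cells of a type and less RNA per cell cannot be told apart.

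Several of these genes have more than 1 annotated start or transcript, and the sequences that separate them are given first. The promoter sequences are from a set of RefSeq promoters on GRCm38.p6. The set used here held 7 promoters for 5 of the 10 genes: Klf4, Grhl1, Grhl3, Prdm1 and Tfap2a. Each runs from 250 bases before to 50 bases after a start. For Grhl1 the upstream start lies in chr12:24572037-24572336 and the downstream start in chr12:24580469-24580768, both on the plus strand. For Tfap2a one start lies in chr13:40734871-40735170 and the other in chr13:40733746-40734045, both on the minus strand. They are shown because the deposited transcript counts fall very unequally on them. For Tfap2a many counts fall on transcripts that begin in neither window. Of the gene's counts in a library, Tfap2a-205 held 0.708% to 42.2%, Tfap2a-201 12.1% to 24.6% and Tfap2a-203 11.5% to 18.3%. Capitals mark a match to the AP-2 motif GCCNNNGGC, and no match to the Grainyhead motif AACCNGTT or the TATA motif TATAAA was found in these 4 windows.
Grhl1 upstream start: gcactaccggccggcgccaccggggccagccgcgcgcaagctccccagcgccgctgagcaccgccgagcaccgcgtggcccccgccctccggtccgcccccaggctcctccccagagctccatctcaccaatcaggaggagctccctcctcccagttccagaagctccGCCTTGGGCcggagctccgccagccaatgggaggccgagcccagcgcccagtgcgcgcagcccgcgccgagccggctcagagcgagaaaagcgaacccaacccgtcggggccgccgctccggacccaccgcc
Grhl1 downstream start: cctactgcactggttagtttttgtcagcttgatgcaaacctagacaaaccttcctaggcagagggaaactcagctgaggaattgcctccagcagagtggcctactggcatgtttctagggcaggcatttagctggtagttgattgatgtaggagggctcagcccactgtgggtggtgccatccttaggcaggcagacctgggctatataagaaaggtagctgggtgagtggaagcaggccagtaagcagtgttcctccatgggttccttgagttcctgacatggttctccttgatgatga
Tfap2a start in chr13:40734871-40735170: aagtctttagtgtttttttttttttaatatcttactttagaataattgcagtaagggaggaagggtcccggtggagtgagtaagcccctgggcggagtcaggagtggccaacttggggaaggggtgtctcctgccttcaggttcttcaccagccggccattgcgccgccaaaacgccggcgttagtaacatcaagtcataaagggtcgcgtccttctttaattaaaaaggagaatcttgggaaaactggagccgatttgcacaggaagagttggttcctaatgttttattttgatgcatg
Tfap2a start in chr13:40733746-40734045: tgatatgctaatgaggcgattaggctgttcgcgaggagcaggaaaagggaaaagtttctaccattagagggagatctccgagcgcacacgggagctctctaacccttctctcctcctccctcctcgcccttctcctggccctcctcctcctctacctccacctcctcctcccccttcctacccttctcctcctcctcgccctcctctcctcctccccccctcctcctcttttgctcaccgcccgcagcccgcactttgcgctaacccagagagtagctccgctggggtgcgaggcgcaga

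Both strands were searched. Of 32817 promoters of the same length in the table, 16.6% held the AP-2 motif, 2.08% the Grainyhead motif and 13.6% the TATA motif. The looser Krüppel-like motif CCNCNCCC was in 49.5% of them, in the upstream Grhl1 window 2 times and in the chr13:40733746-40734045 window of Tfap2a 4 times. A match is a description of letters only, and overlaps between motifs were not removed.

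The fifth sequence is the start of the Grhl2 transcript Grhl2-205, a noncoding transcript whose values stood apart. Its first exon of 129 bases (chr15:37318403-37318531, plus strand, GRCm38, GENCODE release M21) lies outside the exons of the full-length coding transcript Grhl2-201. Its other 8 exons lie within them, so that 3488 of its 3617 bases are shared. The lower-case run is the first exon and the capitals are the first 30 bases of the shared second exon.
Grhl2-205 start: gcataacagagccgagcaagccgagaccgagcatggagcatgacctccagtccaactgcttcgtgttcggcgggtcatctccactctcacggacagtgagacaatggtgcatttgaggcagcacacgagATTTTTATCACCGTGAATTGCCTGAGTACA

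Per unit of length, Klf5 and Klf4 were the most abundant of the 10 factors and Prdm1 and Grhl1 the least. The level used here is the deposited gene FPKM, a fragment count scaled to gene length and library size. Klf5 ranged from 54.6 to 62.3 FPKM over the 6 libraries and Klf4 from 36.6 to 39.6 FPKM, without overlap. Grhl2 followed at 10.4 to 23.9 FPKM, a range that overlaps that of Tfap2a at 13.6 to 15.2 FPKM. Tfap2c, at 9.49 to 10.5 FPKM, overlapped Grhl3, at 8.16 to 11.3 FPKM. Ovol1, at 6.94 to 9.26 FPKM, overlapped both Grhl3 and Zfp750, which had 5.46 to 7.92 FPKM. Grhl1, at 2.51 to 2.90 FPKM, and Prdm1, at 1.89 to 2.78 FPKM, lay below all the others and overlapped each other. Summing the FPKM of a gene's transcripts instead exchanged the places of Grhl2 and Tfap2a, whose mean levels were then 27.97 and 28.4 FPKM, and kept the rest of the order. The fewest deposited counts of any member, those of Prdm1 in IL-33 replicate 2, were well above the floor of 12.

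Per length, the 10 factors were not always the most abundant of their families. Klf6, another Krüppel-like factor, averaged 91.96 FPKM over all libraries, above Klf5 and Klf4, while Klf16 averaged 24.8 FPKM. Ovol2, the closest relative of Ovol1, averaged 4.86 FPKM. In the AP-2 family Tfap2e and Tfap2b averaged 3.79 and 2.47 FPKM, and Tfap2d was listed at 0 in all libraries, as were Klf14, Klf17 and Ovol3. The CP2 factor Ubp1, a distant relative of the Grainyhead genes, averaged 10.3 FPKM.

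**Figure D1:**
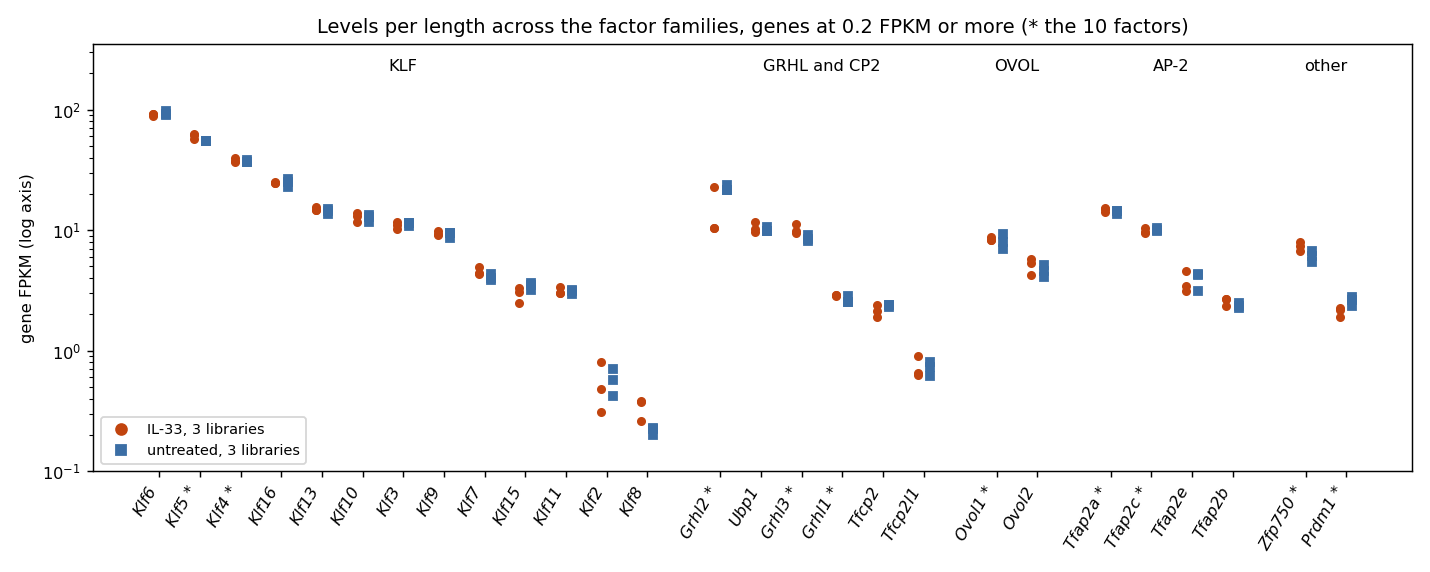
Gene FPKM on a log axis for the Krüppel-like, Grainyhead and CP2, OVOL and AP-2 families, with Zfp750 and Prdm1, in the 3 IL-33 libraries (circles) and the 3 untreated libraries (squares). Stars mark the 10 factors, and genes with a mean under 0.2 FPKM are not drawn. Grhl2 is the one starred gene with an IL-33 library far from the other two, at 22.7 FPKM in replicate 1 and 10.5 and 10.4 FPKM in replicates 2 and 3.

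Between IL-33 and untreated cells, none of the 10 factors passed edgeR's quasi-likelihood test at an adjusted p under 0.05, with p adjusted over all 15778 genes tested; the share that passed among all genes was 0.0697%, or 0.0444% higher and 0.0254% lower with IL-33. The adjusted p of the 10 ran from 0.74 to 0.951. Unadjusted, 4 of the 10 had p under 0.05, namely Klf5, Grhl3 and Zfp750 with higher and Prdm1 with lower values in IL-33 cells, against 6.74% of all genes (3.42% higher and 3.31% lower). The same 4 were those whose groups did not overlap, an order found in 13.7% of all genes (7.39% higher and 6.26% lower). DESeq2, which called 0.438% of the genes it tested, and limma-voom also called 0 of the 10 after adjustment. The 10 log2 fold changes (IL-33 minus untreated, in TMM-scaled CPM) had a median of 0.06, against 0.0018 over all genes, and 7 of 10 were above 0, against 50.5% of all genes. The count of 4 rested on single libraries: it was 0 without IL-33 replicate 2, 2 without untreated replicate 1, and 1 each without untreated replicates 2 and 3. DESeq2 on counts divided by 4 also gave 0. With limma-voom the count was 5, Grhl2 being the one added.

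**Figure D2:**
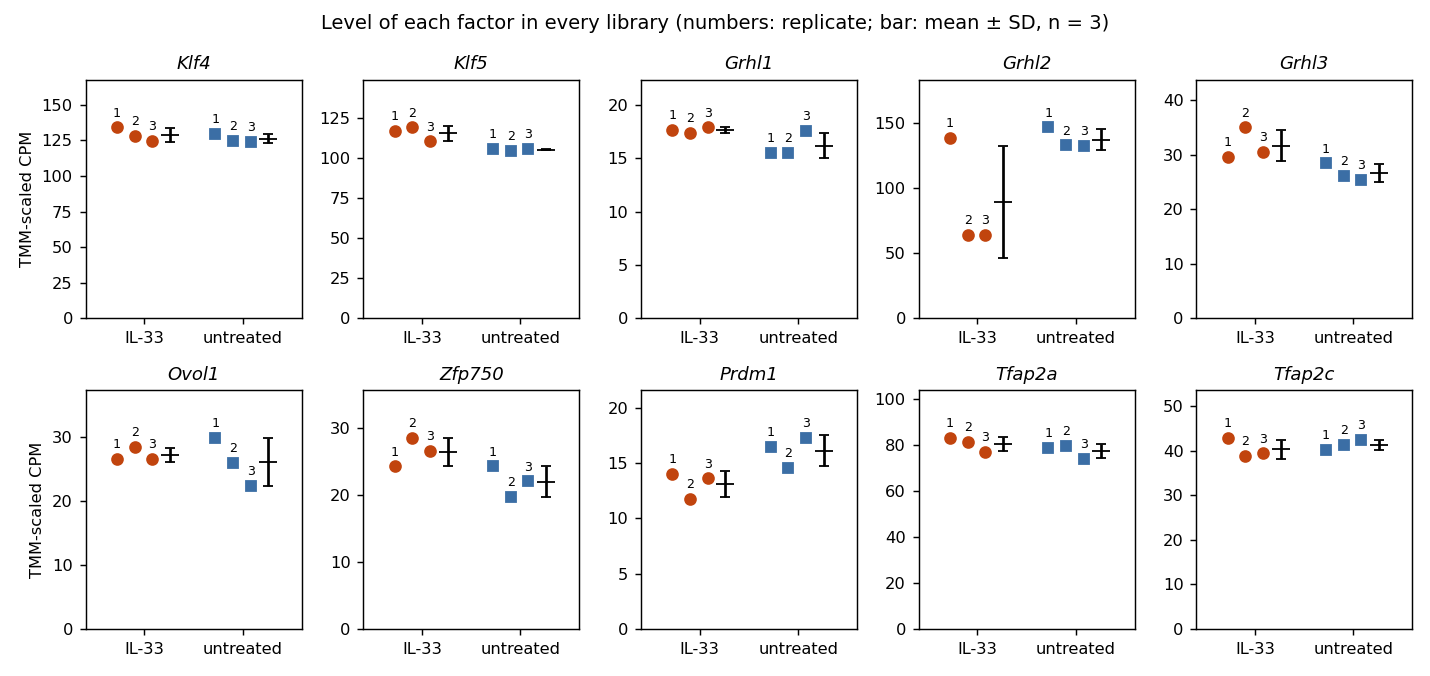
TMM-scaled CPM of each of the 10 factors in the 3 IL-33 libraries (circles, left) and the 3 untreated libraries (squares, right), with the replicate number above each point and the mean ± SD of 3 libraries beside them; each axis starts at 0. In 6 panels the groups overlap. In the Grhl2 panel IL-33 replicates 2 and 3 sit near 64 CPM, and the other 4 libraries between 132 and 146 CPM.

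Klf4, which in mice is needed to build the skin barrier, had 134, 128 and 125 CPM in the IL-33 libraries and 129.7, 125 and 124 CPM in the untreated ones. The groups overlapped, but IL-33 replicate 1 lay above every untreated library and untreated replicates 2 and 3 just below every IL-33 library. The log2 fold change was 0.03 with a 95% interval of -0.08 to 0.14 (edgeR adjusted p = 0.93). Klf5, best known from dividing epithelial cells, had 117, 119 and 110.4 CPM with IL-33 against 106, 105 and 106 CPM untreated. The untreated libraries were nearly equal and all lay below the IL-33 libraries. The log2 fold change of Klf5 was 0.13 (SE 0.051, 95% interval 0.02 to 0.25, unadjusted p = 0.0258, edgeR adjusted p = 0.74), and it ran from 0.11 to 0.17 over 19 alternative settings, with no adjusted p below 0.33. Klf4 (chr4:55527143-55532466) and Klf5 (chr14:99298691-99315036) overlap no other annotated gene. Nearly all deposited Klf4 counts were on the transcript Klf4-201, with 5868, 4306 and 5462 with IL-33 and 5767, 5105 and 5560 untreated.

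Grhl3 (chr4:135541888-135573630), which in mice is needed for barrier formation and for closing wounds in the embryo, had 29.5, 34.96 and 30.5 CPM with IL-33 against 28.4, 26.1 and 25.3 CPM untreated. The groups did not overlap, but the lowest IL-33 library was close to the highest untreated one. The fold change was 1.19 (log2 0.25, SE 0.093, unadjusted p = 0.0234, edgeR adjusted p = 0.74). Grhl1 (chr12:24572283-24617391), which in mouse skin acts on the desmosomal gene Dsg1a, had 17.7, 17.4 and 17.9 CPM with IL-33 against 15.5, 15.5 and 17.6 CPM untreated. Untreated replicate 3 lay among the IL-33 libraries, and the log2 fold change was 0.13 with a 95% interval of -0.09 to 0.34 (edgeR adjusted p = 0.842). Its counts were placed almost wholly on Grhl1-202, which begins 4 bases before the upstream start printed above, with 778, 592 and 787 deposited counts in IL-33 cells and 685, 642 and 796 in untreated cells. The transcripts of the downstream start, Grhl1-201 and Grhl1-204, were listed at 0 in all 6 libraries.

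Grhl2, which keeps epithelial junction genes such as Cdh1 and Cldn4 active, was the member with the largest difference in means and the widest spread. It had 138, 64.2 and 63.96 CPM in IL-33 replicates 1, 2 and 3 against 146, 133 and 132 CPM in the untreated libraries. IL-33 replicate 1 lay among the untreated libraries, and replicates 2 and 3 lay far below all of them. The log2 fold change was -0.62 with a 95% interval of -1.63 to 0.38 (edgeR unadjusted p = 0.163, adjusted p = 0.812). On the same 6 libraries it was -0.71 with limma-voom (unadjusted p = 0.0233, adjusted p = 0.703). Without IL-33 replicate 1 the edgeR log2 fold change was -1.10 and passed the test (edgeR adjusted p = 0.00145). There 0.123% of all genes passed and 0.0493% did so in that direction. Whether the low gene values of replicates 2 and 3 come from how reads were assigned to Grhl2 was not tested. The within-group SD of Grhl2 was 0.46 on the log2 scale, against a median of 0.09 over the 10 factors and 0.10 over 9325 tested genes of at least about 10 CPM.

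This gap inside a group is uncommon but not limited to Grhl2. Of 4496 genes with a mean of at least 50 CPM, 42 had an IL-33 library at least 2-fold above another IL-33 library, or 0.934%, and 45 had such a gap among the untreated libraries, or 1.00%. Grhl2 had a ratio of 2.16 between its highest and lowest IL-33 library and of 1.11 among the untreated ones. The Grhl2 locus (chr15:37233036-37363569) overlaps 3 annotated genes on the opposite strand. Of these Gm16136 had 224, 185 and 280 deposited counts with IL-33 and 192, 185 and 252 untreated, and Gm16137 and Gm16138 had at most 9 in any library. Grhl2 itself had 6085, 2186 and 2824 deposited counts with IL-33 and 6546, 5486 and 5992 untreated.

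The Grhl2 transcripts did not move together. The coding transcript Grhl2-201 had 128, 44.1 and 52.6 CPM with IL-33 (transcript-table scaling) against 114, 80.7 and 102 CPM untreated, and thus both the highest and the lowest library were IL-33 ones (log2 fold change -0.40, edgeR adjusted p = 1.00). The noncoding transcript Grhl2-205, whose start is printed above, had 7.52, 10.5 and 9.14 CPM with IL-33 against 28.2, 42.2 and 25.2 CPM untreated. Here IL-33 replicate 1 was as low as the other IL-33 libraries, and all lay below the untreated ones, an order found for 11.3% of 40163 transcripts tested (5.54% lower and 5.8% higher with IL-33). The log2 fold change of Grhl2-205 was -1.82 (SE 0.257, unadjusted p = 5.88e-04), which did not pass over all transcripts (edgeR adjusted p = 0.296), where 0.0299% did, 0.0149% in each direction. It was -1.95 to -1.56 over 9 alternative settings, and DESeq2 called it (adjusted p = 2.57e-05), as it did 0.968% of the transcripts it tested (0.457% lower with IL-33). That DESeq2 run used the deposited counts undivided, and none was made on transcript counts divided by 4. The deposited values divide reads between Grhl2-201 and Grhl2-205 over the 3488 bases they share, so each transcript's value is an estimate. The short coding transcript Grhl2-204 had 2.74, 4.44 and 2.40 CPM with IL-33 against 4.29, 5.68 and 5.91 CPM untreated (log2 fold change -0.73, edgeR adjusted p = 1.00), with overlapping groups.

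**Figure D3:**
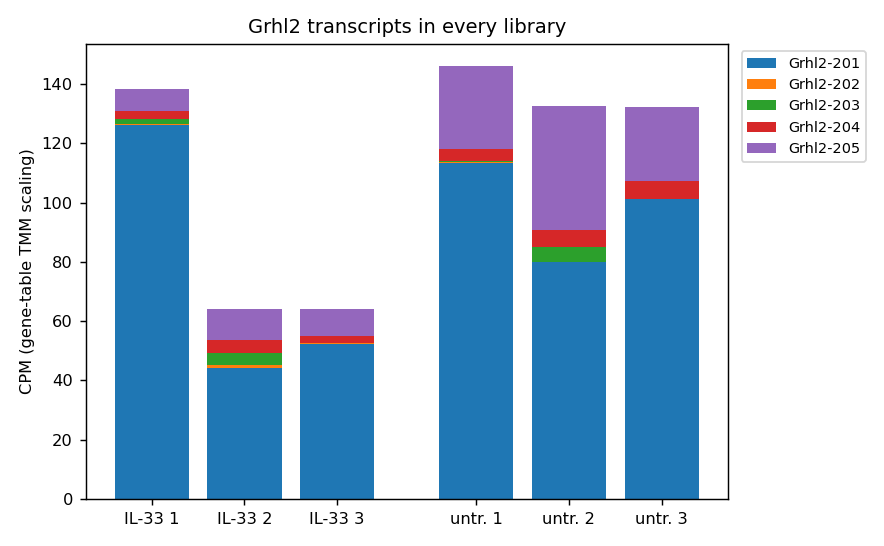
Stacked CPM of the 5 deposited Grhl2 transcripts in each library, scaled by the gene-table TMM factors, with the IL-33 libraries on the left. The Grhl2-201 segment is shortest in IL-33 replicates 2 and 3, and the Grhl2-205 segment is thinner in all 3 IL-33 libraries than in any untreated one.

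Among the other zinc finger factors, Zfp750 and Prdm1 differed between groups in opposite directions and neither passed. Zfp750, whose human counterpart promotes terminal differentiation downstream of p63, had 24.23, 28.4 and 26.6 CPM with IL-33 against 24.22, 19.7 and 21.98 CPM untreated. IL-33 replicate 1 and untreated replicate 1 were nearly equal, so the groups were separated by a very narrow margin. The fold change was 1.20 (log2 0.27, SE 0.105, unadjusted p = 0.0305, edgeR adjusted p = 0.74). Zfp750 (chr11:121510978-121519333) lies inside Tbcd on the opposite strand, and the sources do not state that strand was used in counting, so reads from any bases the pair shares could be counted for either gene. Tbcd had 5007, 3851 and 4948 deposited counts with IL-33 and 4981, 4536 and 5080 untreated, against 1065, 969 and 1173 for Zfp750 with IL-33 and 1084, 814 and 996 untreated.

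Prdm1 (chr10:44437177-44528501), a repressor also called Blimp1 that acts in late epidermal differentiation, had 13.97, 11.7 and 13.6 CPM with IL-33 against 16.5, 14.5 and 17.2 CPM untreated. All IL-33 libraries lay below the untreated ones. The log2 fold change was -0.29 (SE 0.117, 95% interval -0.56 to -0.03, unadjusted p = 0.0314, edgeR adjusted p = 0.74), between -0.37 and -0.21 over 19 alternative settings. Its main transcript Prdm1-202 had 12.5, 10.2 and 10.97 CPM with IL-33 against 13.9, 11.3 and 14.1 CPM untreated, with overlap, and Prdm1-201 had 1.61, 1.49 and 2.31 CPM against 2.22, 2.85 and 3.28 CPM untreated, also with overlap (edgeR adjusted p = 1.00 for each). The intron-retaining Prdm1-203 had 0, 0 and 19 deposited counts with IL-33 against 19, 20 and 0 untreated. Ovol1 (chr19:5549136-5560646), which holds back the division of epidermal progenitors, had 26.6, 28.5 and 26.6 CPM with IL-33 against 29.9, 26.0 and 22.4 CPM untreated. The untreated libraries spread on both sides of the IL-33 ones, and the log2 fold change was 0.06 with a 95% interval of -0.18 to 0.31 (edgeR adjusted p = 0.943). Ovol1 overlaps Gm31166 on the opposite strand, which had 84, 71 and 95 deposited counts with IL-33 and 144, 111 and 150 untreated.

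**Figure D4:**
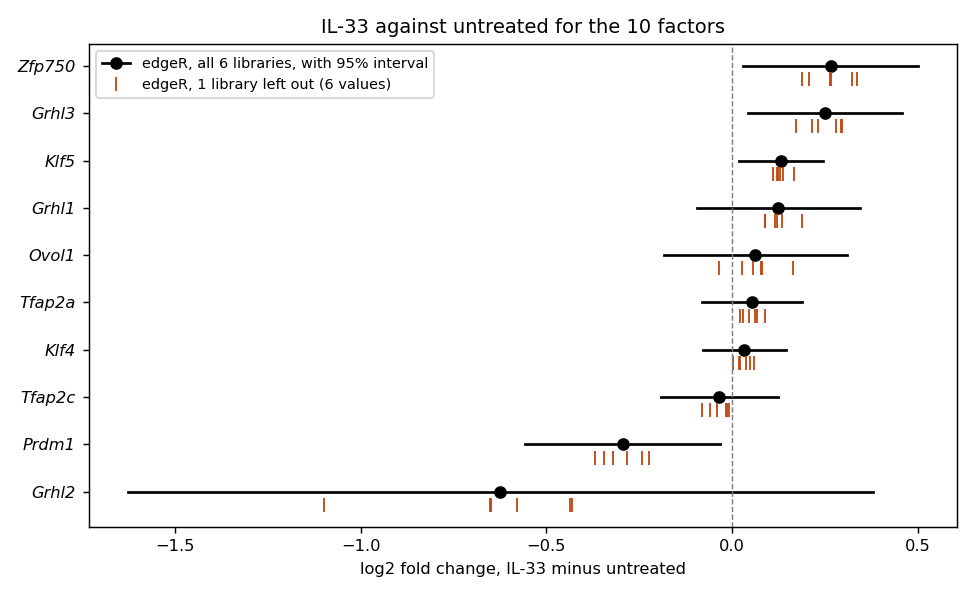
Log2 fold change (IL-33 minus untreated) of the 10 factors from edgeR, with 95% intervals as black lines, and the 6 values obtained by leaving out 1 library as ticks below. The intervals of Zfp750, Grhl3, Klf5 and Prdm1 do not reach 0 before adjustment for the 15778 genes tested, and the Grhl2 interval, -1.63 to 0.38, is the widest.

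The AP-2 factors, which bind GC-rich motifs and act jointly in epidermal development in mice, overlapped between the groups as genes. Tfap2a (chr13:40715302-40738376) had 82.9, 81.3 and 76.7 CPM with IL-33 against 78.7, 79.4 and 73.9 CPM untreated, with overlapping groups (edgeR adjusted p = 0.9, log2 fold change 0.05 with 95% limits of -0.08 and 0.19). Tfap2c (chr2:172549593-172558622) had 42.9, 38.9 and 39.4 CPM with IL-33 against 40.3, 41.3 and 42.5 CPM untreated, also overlapping (edgeR adjusted p = 0.951, log2 fold change -0.03 with 95% limits of -0.19 and 0.12). Tfap2a is also active in melanocytes, and the melanocyte markers Dct and Pmel stood at 333 ± 15.3 and 398 ± 27.3 CPM with IL-33 and at 313 ± 11.8 and 411 ± 15.4 CPM untreated (SD, n = 3 each). Their part in the Tfap2a level was not tested.

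Beneath these level totals the counts were divided among transcripts in ways that differed from library to library within each group. The noncoding transcript Tfap2a-205 had 1324, 854 and 24 deposited counts with IL-33 against 1487, 1195 and 28 untreated, so replicate 3 of each group was far below the other libraries. The coding transcript Tfap2a-202, which starts close to the second Tfap2a start printed above, was high in those same libraries, with 809, 440 and 1693 deposited counts with IL-33 and 767, 440 and 1789 untreated. Tfap2a-208, which begins exactly at the other printed start, was listed at 0 in the IL-33 libraries and had 3, 111 and 3 deposited counts untreated. The coding transcript Tfap2a-206 had 8.04, 14.7 and 7.09 CPM with IL-33 against 4.74, 6.50 and 5.64 CPM untreated, without overlap (log2 fold change 0.82, SE 0.349, unadjusted p = 0.0608, edgeR adjusted p = 1.00). Tfap2a also overlaps 3 antisense genes, of which the most abundant, Gm47061, had 166, 152 and 189 deposited counts with IL-33 and 183, 134 and 190 untreated.

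In Tfap2c the coding transcripts Tfap2c-202 and Tfap2c-206 took each other's place between libraries. Tfap2c-206 had 783, 20 and 100 deposited counts with IL-33 against 869, 2 and 1155 untreated, and Tfap2c-202 had 17, 680 and 561 with IL-33 against 7, 563 and 129 untreated. Each was near 0 in some libraries of both groups. Tfap2c-201 had 1079, 577 and 1026 deposited counts with IL-33 and 922, 1015 and 641 untreated. Of the 25 transcripts of the 10 genes that passed the low-count filter, 0 passed edgeR's test over all transcripts. Unadjusted, 2 had p under 0.05, Grhl2-205 lower and Klf5-201 higher with IL-33, against 4.24% of all transcripts (2.14% lower and 2.11% higher).

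**Figure D5:**
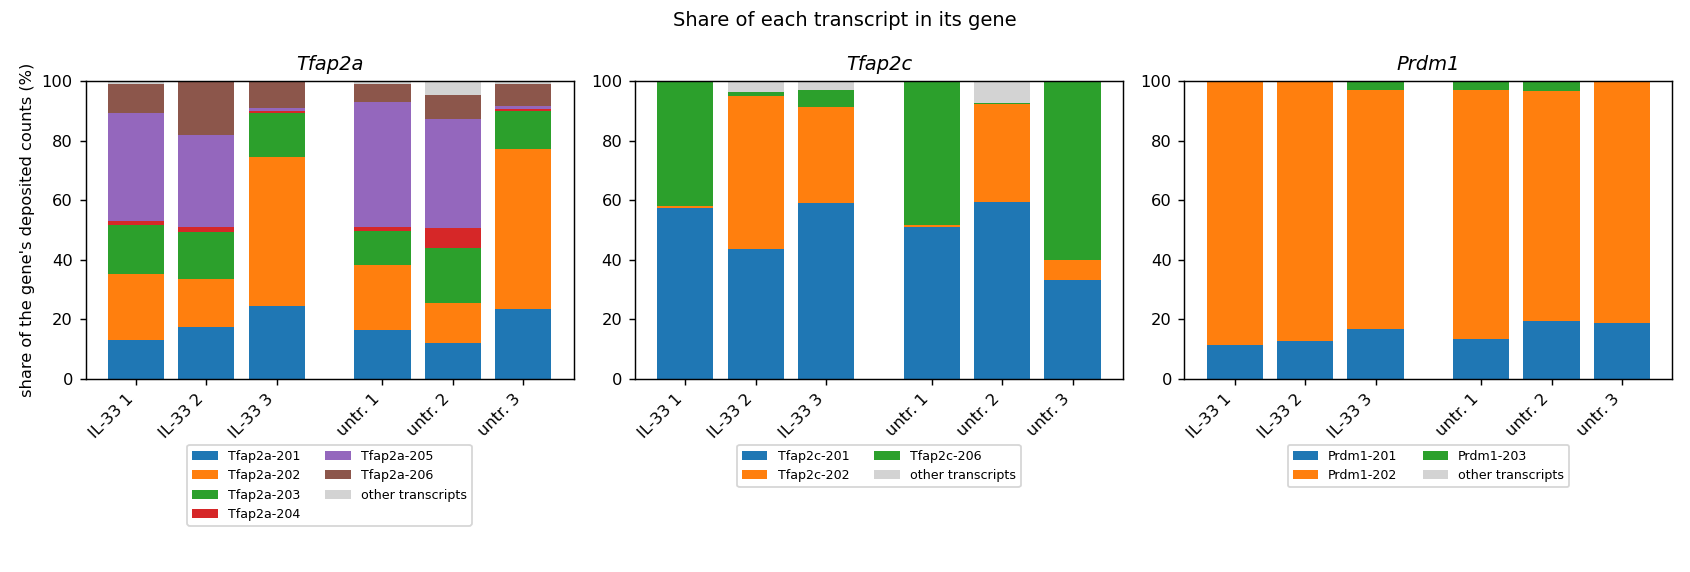
Share of each transcript in the deposited counts of Tfap2a, Tfap2c and Prdm1 in every library, IL-33 libraries on the left, with transcripts that never reach 10% of the gene's FPKM in grey. Tfap2a-205 all but vanishes in replicate 3 of both groups, and Tfap2c-202 and Tfap2c-206 alternate within each group, while Prdm1-202 leads in every library.

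Other genes of the same regulatory network were read from fixed lists, chosen with earlier results of these data known. None of their members passed over all genes. Among 23 relatives of the 10 factors 17 could be tested, with 10 log2 fold changes above 0 and a median of 0.02. Klf8 stood at 1.98 ± 0.391 CPM with IL-33 and 1.28 ± 0.0868 CPM untreated. It was the one of the 17 with an unadjusted edgeR p under 0.05 (0.0469), against 6.74% of all genes. Klf7 and Klf15 came next. Klf7 stood at 41.3 ± 2.97 CPM with IL-33 and 36.9 ± 2.27 CPM untreated, and Klf15 at 9.26 ± 1.33 CPM with IL-33 and 10.8 ± 0.737 CPM untreated (SD, n = 3 each).

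Of 21 other epidermal transcription factors, 16 were above 0, with a median of 0.09, and 7 had an unadjusted p under 0.05, 6 with higher values in IL-33 cells and 1, Fosl1, with lower. Over all genes 50.5% were above 0 and 6.74% had such a p, 3.42% with higher and 3.31% with lower values. The count was 3 with DESeq2 on counts divided by 4, and 4 without IL-33 replicate 2 or without untreated replicate 2. The homeobox gene Barx2 had 38.9, 41.2 and 30.9 CPM with IL-33 against 27.5, 26.4 and 30.1 CPM untreated (log2 fold change 0.40, edgeR adjusted p = 0.576). Cebpa, which restrains division in the epidermis, had 84.4, 92.2 and 85.1 CPM with IL-33 against 74.7, 66.9 and 80.4 CPM untreated (log2 fold change 0.24, edgeR adjusted p = 0.676). The p63 gene Trp63 stood at 363 ± 3.03 CPM with IL-33 and 366 ± 3.70 CPM untreated (SD, n = 3 each), a log2 fold change of -0.01.

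Of 10 chromatin partners none had an unadjusted p under 0.05, against 6.74% of all genes, and the median was 0.01. Rcor1, part of the repressor complex that the human ZNF750 protein recruits, stood at 127 ± 4.46 CPM with IL-33 and 118 ± 3.54 CPM untreated. The deacetylase genes Hdac2 and Hdac1 stood at 153 ± 14.3 and 134 ± 4.73 CPM with IL-33, and at 138 ± 10.5 and 125 ± 5.61 CPM untreated. Of 8 genes that the literature names as targets of these factors none had an unadjusted p under 0.05, against the same 6.74%. Of the 8, 4 were above 0 and 4 below. The Grhl2 targets Cdh1 and Cldn4 stood at 839 ± 48.7 and 333 ± 15.2 CPM with IL-33, and at 895 ± 36.7 and 314 ± 12.4 CPM untreated. Cdh1 had 833, 891 and 794 CPM in IL-33 replicates 1, 2 and 3 and 918, 915 and 853 CPM in the untreated libraries. Of the replicates low in Grhl2, replicate 2 thus had the highest and replicate 3 the lowest Cdh1 within the IL-33 group. Cldn4 had 315, 344 and 338 CPM in IL-33 replicates 1, 2 and 3, so both replicates low in Grhl2 lay above replicate 1. Whether these targets follow Grhl2 was not tested. Dsg1a, the Grhl1 target, stood at 1.05 ± 0.359 CPM with IL-33 and 0.743 ± 0.289 CPM untreated.

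Among 23 genes of terminal differentiation 18 could be tested, of which 9 were above 0 and 9 below, with a median of 0.01. Unadjusted, 4 had higher values and 1, Ivl, lower values with IL-33 at p under 0.05, against 3.42% and 3.31% of all genes, and the count of 5 was 3 without IL-33 replicate 2 or untreated replicate 1, 2 without untreated replicate 2 or 3, and 3 with DESeq2 on counts divided by 4. Krt80, a keratin of differentiating cells, had 55.4, 53.6 and 54.3 CPM with IL-33 against 47.7, 48.4 and 44.3 CPM untreated (log2 fold change 0.22, edgeR adjusted p = 0.623). The envelope plakin genes Ppl and Evpl had log2 fold changes of 0.25 and 0.19 (edgeR adjusted p = 0.74 and 0.71).

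Over the 6 libraries, the gene of these lists whose log2 CPM ran most like Grhl3 was Ppl (Pearson r = 0.93), and for Zfp750 it was Maf (r = 0.93). Klf5 ran most like Barx2 (r = 0.98), Tfap2c like Myc (r = 0.98), Ovol1 like Kdm6b (r = 0.96), Klf4 like Ovol2 (r = 0.87) and Tfap2a like Msx2 (r = 0.86). Grhl2 and Prdm1 both ran most like Fosl2, with r of 0.88 and 0.87. Each is the best of 75 candidates over 6 libraries that differ in depth and include both groups. A difference between the groups enters every r, so each is a description only. Among the 10 themselves, Grhl3 and Zfp750 had the highest r, at 0.91, and Grhl3 and Prdm1 the lowest, at -0.87.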

How the data were processed

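Messenger RNA libraries of 3 IL-33-treated and 3 untreated keratinocyte samples were analysed from 4 deposited tables. The deposited values are estimated counts, whole numbers per gene and per transcript, and FPKM values, per the file headers. The submitters' processing notes list mm10, StringTie 1.3.4d, HISAT2 2.1.0, DESeq2 1.18.1 and FastQC 0.11.7, with no role for each. No annotation release is named in these sources. In 99.98% to 99.99% of abundant transcripts the deposited count was proportional, within 1%, to FPKM times exon length. Rebuilt that way before rounding, 1382 transcripts of untreated replicate 1 lay near 4, against 404 near 3 and 317 near 5, so 4 counts were taken as about 1 fragment; 771 lay near 2, so this unit is an estimate.

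Symbols were matched by Ensembl identifier for 52403 of 52550 genes. Positions are from GENCODE release M21, and 97.2% of transcript identifiers had the same version there. The test was edgeR 4.0.16 (R 4.3.3): TMM scaling, filterByExpr at a minimum count of 10, robust quasi-likelihood fit, all genes or all transcripts, Benjamini-Hochberg adjustment, threshold 0.05, and 95% intervals. No replicate block was used: same-numbered libraries had deviations from the group means that correlated at -0.05 to 0.07. Each library differed from each other one beyond sampling noise (median chi-square 2.11 to 3.16 times its sampling value over 10737 genes). The test was also run on counts simulated from the dispersions fitted to these data. No statement here rests on that run.

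The text names the 10 members, transcripts reaching 10% of their gene's FPKM in a library, the 3 genes of each list with the smallest p, the most alike gene of each member, and markers, less 1 gene that is not reported here; relatives named by level (Klf6, Klf16, Ovol2, Tfap2b, Tfap2e, Ubp1), Trp63, Fosl1, Ivl, Tfap2a-208, antisense genes, Tbcd and the genes with the library order of Grhl2 were chosen after their values were seen. Members and lists were chosen with earlier results of these data known. Alternatives were other scalings, filters, DESeq2 1.42.0, limma 3.58.1 with voom or on log2(FPKM + 1) and log2(FPKM + 0.1), counts divided by 4, a replicate block and each library left out.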

Additional observations from a re-analysis of the deposited data

How the results depend on the processing

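No member was called under any alternative except Grhl2 without IL-33 replicate 1 (log2 fold change -1.10), so the count of called members without 1 library ran from 0 to 1. Of 190 recomputed member fold changes, 188 kept their direction and their side of the threshold. The other exception was Ovol1, at -0.036 without untreated replicate 3, in a range of -0.036 to 0.17 with 1 library left out; the cause was not tested. DESeq2 on undivided transcript counts called 1 transcript of the members, Grhl2-205. Over all genes, the 11 calls became 17 with no low-count filter, 71 with DESeq2, 31 with DESeq2 on counts divided by 4, 5 with limma-voom, 4 with limma on log2(FPKM + 1) and 4 on log2(FPKM + 0.1) at a mean FPKM of at least 0.1, 3 with limma on log2(FPKM + 1) for every FPKM above 0, and 11 to 90 with 1 library left out. At an unadjusted p under 0.05, in counts recomputed by a choice made after seeing the data, DESeq2 on counts divided by 4 gave 0 members, 3 other epidermal factors and 3 differentiation genes; with 1 library left out the counts ran from 0 to 4, 4 to 6 and 2 to 4. Under a replicate block, 8 genes and 0 members were called and 3 members had an unadjusted p under 0.05; the labels do not say that a number marks a shared source. Depth was about 8547043 to 11316574 fragments per library.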

Other observations

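The order seen for Grhl2, with IL-33 replicate 1 at least 2-fold above replicates 2 and 3, was shown by 5 of 4496 genes with a mean of at least 50 CPM. Besides Grhl2 these were Crk, Slc25a51, Slc35a4 and Mapk14, named after their values were seen. Crk, an adaptor protein of tyrosine kinase signalling, had 173, 69.7 and 65.1 CPM in IL-33 replicates 1, 2 and 3 and 56.1, 55.2 and 189.8 CPM in untreated replicates 1, 2 and 3. Its high and low levels thus appeared in both groups. Mapk14, the p38 alpha kinase, had 147, 51.0 and 48.3 CPM with IL-33 and 82.9, 53.0 and 49.0 CPM untreated. Slc25a51 had 90.5, 43.5 and 41.8 CPM with IL-33 and 47.1, 24.9 and 67.97 CPM untreated. Slc35a4 had 143, 68.6 and 62.7 CPM with IL-33 and 61.4, 66.8 and 63.2 CPM untreated. Grhl2 was the one of the 5 whose 3 untreated libraries all stood at the level of IL-33 replicate 1.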
